A study of Mus musculus with 92 samples.

Results

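In germline stem cells (GSC), self-renewing spermatogonial cells of the mouse grown in culture, 2209 of 27734 STAG3 sites were also STAG2 sites, lacked a STAG1 site and any CTCF peak, and carried STAG2 in at least 1 of 4 cultured cell types that stand for earlier stages. These 2209 sites, called the recurrent off-CTCF sites below, are the subject here. Cohesin is a ring of SMC1, SMC3 and a kleisin subunit that extrudes DNA loops and holds sister chromatids together. Each ring carries a STAG subunit, which helps to bind DNA and the loading and release factors. STAG1 and STAG2 serve dividing cells in general, STAG3 is best known from meiosis, and the insulator protein CTCF is where loop extrusion most often stops. Cohesin away from CTCF is known from active promoters, enhancers and, in yeast, tRNA genes, where its loader is found.

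The data are peak lists from chromatin immunoprecipitation and sequencing of bulk, formaldehyde-fixed cells: 3 STAG3, 3 STAG2 and 2 STAG1 lists from wild-type GSC, 4 CTCF lists from mutant GSC, and STAG2 and STAG1 lists from 4 wild-type cell types of culture. These were ESC (embryonic stem cells), EpiLC (cells like those of the epiblast), and d2PGCLC and d4c7PGCLC (cells like primordial germ cells). STAG2 had 2 lists in ESC and in EpiLC and 3 in each PGCLC stage, and STAG1 had 2 lists in each of these cell types. GSC were of the AAG line, which carries the Acrosin-EGFP and beta-Actin-EGFP transgenes, and were sorted for that fluorescence. The 4 earlier cell types were of the BVSC line, which carries the Blimp1-mVenus and Stella-ECFP reporters, and PGCLC were sorted for Blimp1-mVenus, so line and cell type cannot be told apart between GSC and the rest. The CTCF lists came from GSC without Stag3, without Stag1 and Stag2, without Stag1 and Stag3, and without Stag2 and Stag3, with 1 pooled list each and none from wild-type GSC. Peak lists hold no expression values, so the labelled cell types could not be checked against markers, and the labels do not say whether replicates were separate cultures.

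The sites were chosen by the presence of peaks in the GSC STAG3, STAG2, STAG1 and CTCF lists and in the STAG2 lists of the earlier cell types, so those values are given as descriptions. A site of a group is a merged interval overlapped by at least 2 of its lists. Of the 27734 GSC STAG3 sites, 13643 overlapped a GSC STAG2 site, 6223 of these had no GSC STAG1 site, 3290 of these had no CTCF peak in any genotype, and 2209 had a STAG2 site in an earlier cell type. The other 1081 are called non-recurrent sites. As a second set to compare with, 2836 sites met every condition except that they overlapped a CTCF peak, and these are called CTCF counterparts, of which 2640 had a CTCF peak in all 4 genotypes. The recurrent off-CTCF sites lay on 2189 distinct GSC STAG2 sites. List lengths bear on all these counts. GSC STAG3 replicate 1 and GSC STAG2 replicate 2 were short, with 12832 and 13698 peaks, against 38631 and 39681 in the other STAG3 lists and 25021 and 25979 in the other STAG2 lists. Leaving out both short lists gave 2054 sites, but leaving out GSC STAG3 replicate 2 or 3 gave 937 or 954, and leaving out GSC STAG2 replicate 1 or 3 gave 607 or 585. Near the list threshold, 1623 of the 2209 sites had a peak in exactly 2 of the 3 GSC STAG2 lists, 537 in all 3, and 49 in fewer at a longer merged STAG2 site. For STAG3, 1283 had a peak in exactly 2 lists and 926 in all 3. A peak in exactly 1 of the 2 GSC STAG1 lists was found at 74 sites, and 2165 further off-CTCF, STAG1-free STAG3 sites with earlier STAG2 stood just outside the rule, with a peak in only 1 GSC STAG2 list.

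Sequences show what kind of DNA the results turn on. Most of the sites ranked highest in GSC STAG2 lay on tRNA genes. The 2 tRNA genes shown are at recurrent off-CTCF sites. Both lie whole inside a promoter window of the RefSeq sequence table (GRCm38.p6, the coordinates of mm10). The gene n-TRtcg5, an arginine tRNA gene with the anticodon TCG, lies at chr7:79466419-79466491 on the plus strand, inside the promoter window of Polg, the gene of the mitochondrial DNA polymerase. The gene n-TTagt9, a threonine tRNA gene with the anticodon AGT, lies at chr7:35234770-35234843 on the minus strand. Capitals mark the match to the B box, the promoter element inside tRNA genes that the factor TFIIIC binds.
n-TRtcg5: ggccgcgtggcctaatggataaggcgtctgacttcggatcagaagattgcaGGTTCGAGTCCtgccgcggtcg
n-TTagt9: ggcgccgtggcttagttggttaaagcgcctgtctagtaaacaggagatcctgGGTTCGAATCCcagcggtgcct
The most frequent place was a CpG-rich promoter, and the windows of Notch2 (a receptor of cell-to-cell signalling, chr3:98013288-98013587, plus strand) and Etv5 (a transcription factor of spermatogonial stem cell self-renewal, chr16:22439521-22439820, minus strand) show it. Wbp4 (a splicing factor, chr14:79481219-79481518, minus strand) is shown because its promoter lies within 1 of the 10 highest-ranked sites, which also covers the glutamate tRNA gene n-TEttc4. Ilf2 (an RNA-binding protein, chr3:90475951-90476250, plus strand) is shown because its STAG2 peak was far above those of Notch2 and Etv5 and its window holds no GC box. Capitals mark GC boxes, GGGCGG or its reverse complement CCGCCC.
Notch2: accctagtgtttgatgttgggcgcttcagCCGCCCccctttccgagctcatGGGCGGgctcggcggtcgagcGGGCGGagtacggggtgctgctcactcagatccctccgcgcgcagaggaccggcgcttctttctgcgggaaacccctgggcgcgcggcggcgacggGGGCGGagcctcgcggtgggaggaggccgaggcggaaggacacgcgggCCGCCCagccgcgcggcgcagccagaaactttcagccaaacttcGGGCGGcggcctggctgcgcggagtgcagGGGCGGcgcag
Etv5: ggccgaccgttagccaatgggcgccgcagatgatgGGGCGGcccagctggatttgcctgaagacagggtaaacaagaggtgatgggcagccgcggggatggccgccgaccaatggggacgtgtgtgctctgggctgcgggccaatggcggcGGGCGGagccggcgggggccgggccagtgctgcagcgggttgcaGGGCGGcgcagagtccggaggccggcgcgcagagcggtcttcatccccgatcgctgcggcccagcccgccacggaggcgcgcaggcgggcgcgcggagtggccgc
Wbp4: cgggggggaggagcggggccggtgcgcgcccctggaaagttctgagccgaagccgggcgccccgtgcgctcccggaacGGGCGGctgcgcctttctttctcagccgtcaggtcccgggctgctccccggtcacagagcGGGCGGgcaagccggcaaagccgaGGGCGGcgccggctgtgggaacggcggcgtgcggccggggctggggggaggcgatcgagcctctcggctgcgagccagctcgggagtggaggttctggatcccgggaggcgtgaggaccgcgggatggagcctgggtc
Ilf2: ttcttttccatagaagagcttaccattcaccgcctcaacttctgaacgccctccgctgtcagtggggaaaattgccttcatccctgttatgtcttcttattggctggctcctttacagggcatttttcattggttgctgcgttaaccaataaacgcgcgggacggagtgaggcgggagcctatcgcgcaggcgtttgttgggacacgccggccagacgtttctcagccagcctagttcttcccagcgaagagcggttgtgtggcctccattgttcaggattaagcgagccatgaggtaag
Notch2, Etv5 and Wbp4 held 7, 3 and 3 GC boxes and 41, 37 and 38 CpG in 300 bases, and Ilf2 held 0 GC boxes and 18 CpG.

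The recurrent off-CTCF sites were mostly promoters. Windows from 250 bases before to 50 after a RefSeq transcript start were used for all chromosomes except 18. Of the 2144 recurrent off-CTCF sites on those chromosomes 1324 (61.8%) overlapped a window. The share was 23.96% of the CTCF counterparts, 12.9% of the non-recurrent sites and 31% of all GSC STAG3 sites. STAG3 sites with neither a GSC STAG2 site nor a CTCF peak overlapped a window at 45.6%. These are descriptions of site lists with no test, and sites are not replicates. Within 2500 bp of either end of a protein-coding gene lay 1698 of the 2209 sites (76.9%, exact 95% binomial interval 75.1 to 78.6% for counting error only), against 40.4% of the CTCF counterparts, 21.0% of the non-recurrent sites, 66.8% of STAG3 sites with neither a GSC STAG2 site nor a CTCF peak and 48% of all GSC STAG3 sites. Leaving out GSC STAG2 replicate 1 or 3 lowered the promoter share to 51.8 or 53.0%.

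**Figure D1:**
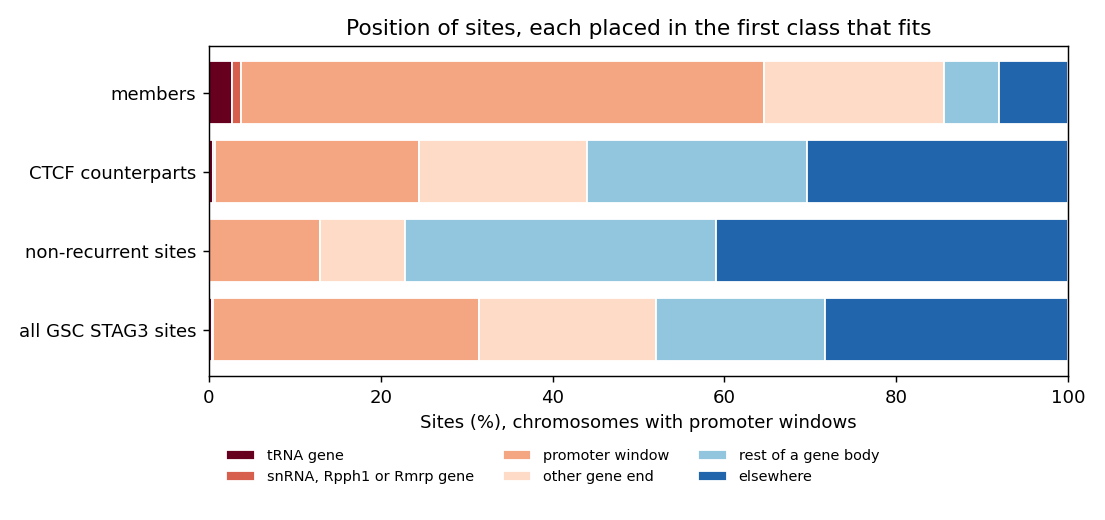
Horizontal bars give the percent of sites in each position class for the recurrent off-CTCF sites (members), their CTCF counterparts, the non-recurrent sites and all GSC STAG3 sites, each site being placed in the first class of the legend that it meets. Promoter windows hold 60.9% of the members after tRNA and snRNA genes are taken out, and 8.07% of members lie outside genes and gene ends, against 30.4% of the CTCF counterparts.

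Inside promoters the sites lay around the start. Of 1324 sites at windows, 816 (61.6%) had their centre downstream of it, against 62.0% of all GSC STAG3 sites at windows. The centre of a recurrent off-CTCF site at a promoter window lay a median of 50 bp downstream of the nearest start (quartiles -65 and 147 bp), close to the median of 47 bp over all GSC STAG3 sites at windows. Starts on both strands were overlapped by 173 of these 1324 sites (13.1%), against 14.2% over all GSC STAG3 sites at windows. Sites were 697 bp wide in the median, against 431.5 bp for CTCF counterparts, 415 bp for non-recurrent sites and 503 bp for all GSC STAG3 sites. The nearest CTCF peak was a median of 12331 bp away (quartiles 3813 and 28111 bp), against 10316 bp for the non-recurrent sites, and 225 of the sites (10.2%) had one within 1000 bp. Chromosome 11 held the most sites, 195.

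The promoter sequence was rich in CpG and GC boxes. The 1683 windows at recurrent off-CTCF sites held a median of 28 CpG and 67.3% G or C in 300 bases, against 25 and 66.0% at CTCF counterparts, 23 and 62.0% at non-recurrent sites, 24 and 64.0% at all GSC STAG3 sites, and 7 and 52.7% over all 32851 windows. A GC box was found on either strand in 78.2% of the windows at recurrent off-CTCF sites, 72.8% at CTCF counterparts, 69.4% at non-recurrent sites, 71.3% at all GSC STAG3 sites and 35.7% of all windows. The core CTCF motif stood in 3.21% of the windows at recurrent off-CTCF sites, 12.2% at CTCF counterparts, 5.07% at all GSC STAG3 sites and 2.44% of all windows. An E-box (CACGTG) was in 12.1% of windows at recurrent off-CTCF sites, 9.58% at CTCF counterparts, 10.8% at all GSC STAG3 sites and 7.15% of all windows. A TATA box (TATAAA) was in 4.93% of windows at recurrent off-CTCF sites, 6.47% at CTCF counterparts, 5.39% at all GSC STAG3 sites and 13.6% of all windows. Both strands were searched, and a match is a description of the letters only.

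STAG2 at the recurrent off-CTCF sites was mostly weak. Every peak carries a fold enrichment over background, which is the authors' value, and ranks hold within a list only. In the GSC STAG2 lists the strongest peak at a site had a median fold enrichment of 6.21, 5.88 and 5.93 at recurrent off-CTCF sites where called, against 7.86, 7.23 and 7.80 at CTCF counterparts. Ranked within each list, these were the 30.9, 12.9 and 33.6 percentiles, against 49.9, 30.5 and 53.8 for the counterparts. In the GSC STAG3 lists the medians of the percentiles were 36.6, 64.0 and 64.8, against 45.3, 67.0 and 67.2. When sites were chosen without GSC STAG2 replicate 2, that list held a peak at 25.6% of the 2086 recurrent off-CTCF sites, 52.6% of the CTCF counterparts and 64.8% of all STAG2 sites of the other lists. When they were chosen without GSC STAG3 replicate 1, that list held a peak at 42.5% of the 2175 sites, 38.7% of the counterparts and 41.2% of all STAG3 sites of the other lists. With every STAG list cut to its 9641 peaks of highest fold enrichment, the length of the shortest, 19 recurrent off-CTCF sites were left, 11 of them at tRNA genes.

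STAG2 was present at most of these sites through several stages. A STAG2 site was found in all 4 earlier cell types at 965 of the 2209 sites (43.7%), in 3 at 494, in 2 at 418 and in 1 at 332. Of the CTCF counterparts, 79.97% had STAG2 in all 4. By cell type, the share of recurrent off-CTCF sites with a STAG2 site was 72.1% (ESC), 71.9% (EpiLC), 83.6% (d2PGCLC) and 67.1% (d4c7PGCLC). The list that covered them most fully was d2PGCLC STAG2 replicate 1, with a peak at 93.5%, and the one that covered them least among the earlier cell types was d4c7PGCLC STAG2 replicate 2, with 54.1%. These lists held 73250 and 35799 peaks, and shares between replicates of d2PGCLC ran from 60.4 to 93.5%, so the order of the cell types lies within the spread of single lists. Among sites with STAG2 in only 1 earlier cell type, 145 had it in d2PGCLC, 72 in EpiLC, 61 in ESC and 54 in d4c7PGCLC. By position, STAG2 in all 4 earlier cell types was found at 57 of 58 sites on tRNA genes, 572 of 1305 other sites at promoter windows (43.8%) and 58 of 180 outside genes and gene ends (32.2%). That every site had at least 1 was set by the rule. Since cells were pooled, a site bound in fewer cells cannot be told apart from one bound weakly in all.

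Sites on tRNA genes made up most of those ranked highest in GSC STAG2. This group was picked out after its values had been seen, so it is described without a test. Of the 2209 recurrent off-CTCF sites 58 (2.63%) overlapped a tRNA gene, against 14 of the 2836 CTCF counterparts, 0 of the 1081 non-recurrent sites and 0.35% of all GSC STAG3 sites. They covered 70 of the 408 tRNA genes of the RefSeq table. In the 3 GSC STAG2 lists their median fold enrichment was 146, 132 and 123, against 5.79, 5.83 and 5.61 at promoter sites. ESC lists gave 206 and 194 at tRNA genes, against 5.32 and 5.63 at promoter sites, and EpiLC lists gave 358 and 296, against 5.77 and 5.86. In d2PGCLC the medians at tRNA genes were 75.6, 58.2 and 72.5, and in d4c7PGCLC 219, 103 and 120. In the median, all 13 STAG2 lists therefore ranked these sites far above the promoter sites, at percentiles from 94.5 to 99.9. Single promoter sites reached as high. In GSC STAG2 replicates 1 and 3 the highest value at promoter sites was 295 and 222, against 288 and 198 at tRNA genes. In replicate 2 it was 243, against 259 at tRNA genes. Of the 50 recurrent off-CTCF sites ranked highest in GSC STAG2, 40 overlapped a tRNA gene. Leaving out GSC STAG3 replicate 2 or 3 left 20 or 24 such sites.

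**Figure D2:**
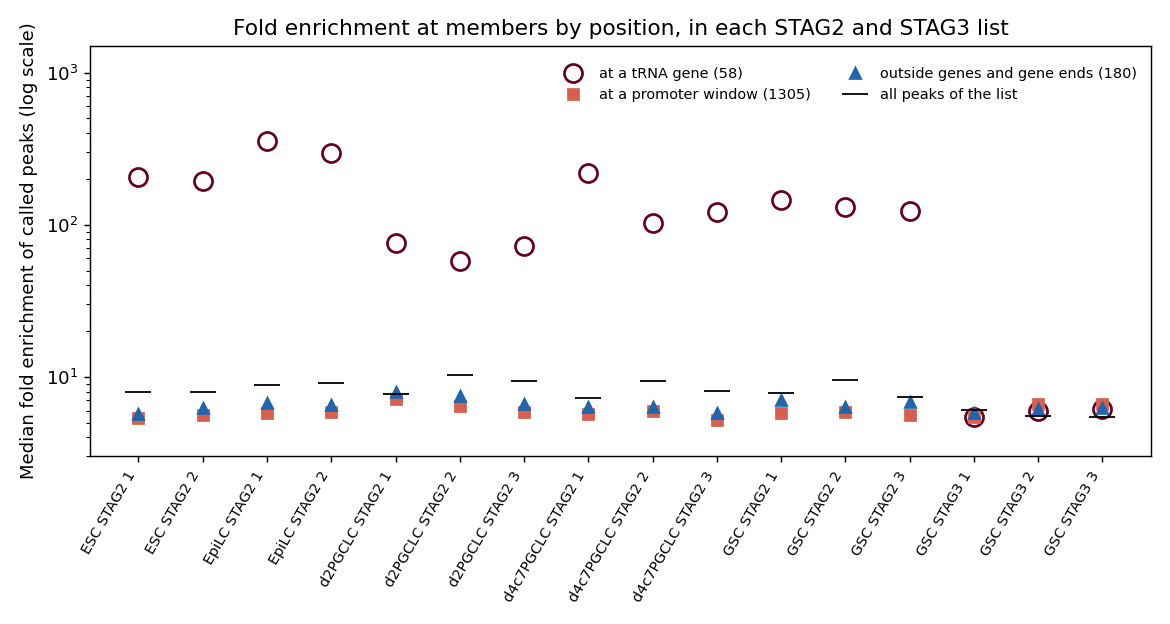
Points give the median fold enrichment (log axis) of the peaks called at recurrent off-CTCF sites, by position class, in each STAG2 and STAG3 list, and dashes give the median of all peaks in that list. Sites at tRNA genes lie between 58.2 and 358 in the 13 STAG2 lists and near the other classes, between 5.43 and 6.16, in the 3 STAG3 lists.

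STAG3 at the same tRNA genes was not higher in the median than at promoter sites. The 58 sites had median STAG3 fold enrichments of 5.43, 5.95 and 6.16 where called, against 5.43, 6.63 and 6.65 at promoter sites. Among the 50 sites ranked highest in GSC STAG3, 2 overlapped a tRNA gene and 29 a promoter window. STAG1 was close to absent from the lists there: 2 of the 58 sites had a STAG1 peak in any earlier list, with fold enrichments between 4.67 and 4.79. The peak names of the STAG3 lists carry another working directory than those of STAG1 and STAG2, so antibody and peak calling cannot be told apart in this comparison.

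Beyond the recurrent off-CTCF sites, tRNA genes were STAG2 sites in every cell type. Each STAG2 list overlapped between 244 and 272 of the 408 tRNA genes, although list length ran from 13698 to 84904 peaks. A STAG2 site stood at 257 tRNA genes of GSC, 261 of ESC, 265 of EpiLC, 252 of d2PGCLC and 261 of d4c7PGCLC, and 245 of them had one in all 5 cell types. The 3 STAG3 lists overlapped 47, 118 and 135 tRNA genes, the 10 STAG1 lists between 0 and 15, and the 4 CTCF lists between 15 and 17. The longest STAG1 list had 42013 peaks and overlapped 8 tRNA genes, and the shortest STAG2 list had 13698 and overlapped 258. Of the 257 tRNA genes at a GSC STAG2 site, 95 were also at a GSC STAG3 site and 70 at a recurrent off-CTCF site. STAG3 was found at 17 of the 30 that lay within 1000 bp of a protein-coding start, at 29 of 73 between 1000 and 10000 bp and at 49 of 154 farther away. Over all amino acids, recurrent off-CTCF sites covered 70 of the 408 tRNA genes, with 58 sites, so some genes share a site. They covered 8 of the 24 arginine, 8 of the 17 threonine, 6 of the 16 proline and 3 of the 8 tryptophan tRNA genes. The counts were 1 of 56 for cysteine and 0 of 26 for lysine. Of the genes of these 6 amino acids, in the same order, 23, 16, 14, 6, 9 and 15 were at a GSC STAG2 site.

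**Figure D3:**
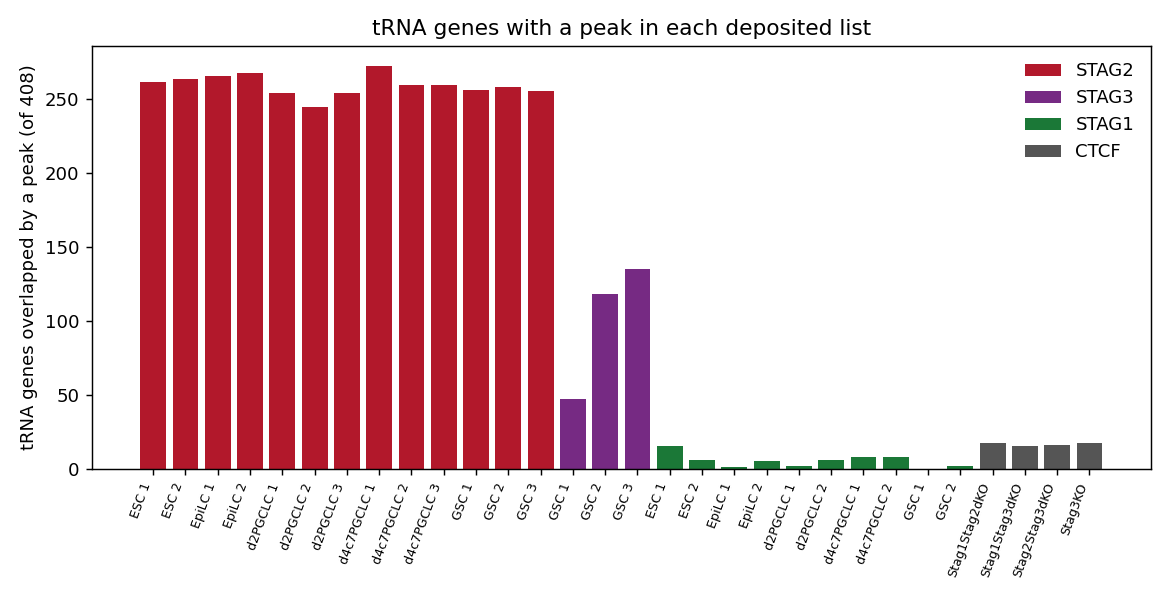
Bars give the number of the 408 tRNA genes overlapped by at least 1 peak in each deposited list, ordered by protein and cell type. The 13 STAG2 lists stand between 244 and 272, the 3 STAG3 lists between 47 and 135, and the STAG1 and CTCF lists at 17 or below.

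Named by the nearest protein-coding gene, 9 of the 10 sites with the highest mean rank over the GSC STAG3 and STAG2 lists were tRNA genes. First was a site of 1391 bp at chr16:13436984-13438374 around the threonine tRNA gene n-TTcgt5, 19455 bp from Mrtfb. Its fold enrichment was 144, 146 and 142 in the GSC STAG2 lists and 9.91, 10.1 and 15.4 in the GSC STAG3 lists. The site around the asparagine tRNA gene n-TNgtt14 (chr5:149228662-149229485, nearest gene Uspl1) had 219, 196 and 162 for STAG2 and 8.63, 12.8 and 13.1 for STAG3. In each STAG3 list, the highest value of the 10 was at 1 of these 2 sites. The site next to Hes7, a repressor of the segmentation clock (chr11:69124125-69124532), lay on the leucine tRNA gene n-TLtag3, with STAG2 at 263, 199.8 and 194 and STAG3 at 5.11, 8.01 and 8.605. The other sites of this kind were nearest to Ctc1, Tbc1d31, Elf1 (at the promoter windows of Elf1 and Wbp4), Wnt11, Agbl5 and Pcgf2 (at the promoter window of Psmb3). The remaining site, 31772 bp from Arhgap5, covered 2 snRNA genes of 107 bases, with STAG2 at 70.4, 60.1 and 45.3. All 10 had STAG2 sites in the 4 earlier cell types.

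In all, 117 of the 2209 sites had a peak in each of the 13 STAG2 and 3 STAG3 lists, among them 22 at tRNA genes and 55 at promoter windows. Of the 8 further sites ranked highest over those lists, 6 were tRNA genes near Borcs6, Agbl5, Atp10a, Ndufs7, Tmpo and Mettl26. The other 2 were the snRNA gene Gm25541 near Wdr5, with STAG2 at 201, 178 and 143 in GSC, and the promoter of Fbxo31, a ubiquitin ligase subunit (chr8:121578344-121579201), with 119, 159.7 and 137. At Ilf2 the STAG2 fold enrichment was 295, 243 and 222 in GSC, 437 and 531 in ESC, and 393 and 460.5 in EpiLC, with STAG3 called in 2 of 3 lists at 4.48 and 5.48. No tRNA or snRNA gene of the RefSeq table overlapped the Ilf2 or the Fbxo31 site. The Agbl5 locus held 2 of the sites under 1 broad STAG2 peak, so their STAG2 values are the same.

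Genes of other small RNAs had STAG2 over a wide range. In all, 23 recurrent off-CTCF sites (1.04%, against 0.176% of CTCF counterparts, 0 non-recurrent sites and 0.173% of all GSC STAG3 sites) overlapped 25 genes of snRNAs or of the RNAs of RNase P and RNase MRP. Rmrp, the RNase MRP RNA, had STAG2 at 74.1, 36.8 and 62.4 in the 3 GSC lists, and Rpph1, the RNase P RNA, at 20.1, 17.6 and 21.2. Both are transcribed by RNA polymerase III, as tRNA genes are. In GSC replicates 1 and 3, STAG2 was 201 and 143 at the snRNA gene of 126 bases, Gm25541, and 23.2 to 70.4 and 8.42 to 45.3 at the 3 sites on snRNA genes of 107 bases, where the low end of both ranges was Gm25064. The U1 gene Rnu1a1, transcribed by RNA polymerase II, had 7.29 and 9.98, and the 4 genes of U3 RNA, Rnu3b1 to Rnu3b4, between 4.99 and 10.8. Rnu12 had 9.10 and 7.40, and Rnu5g 7.43 and 9.98. STAG3 in replicate 2 was 3.93 to 12.1 at all 23 sites.

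STAG1 in the earlier cell types was not used by the rule, so it could be tested. A STAG1 peak was found at 10.4 and 2.17% of the recurrent off-CTCF sites in the 2 ESC lists, 0.181 and 0.860% in EpiLC, 1.99 and 7.74% in d2PGCLC, and 13.1 and 11.5% in d4c7PGCLC. At CTCF counterparts the shares in the same lists were 85.3 and 70.7%, 36.1 and 54.7%, 53.6 and 65.9%, and 88.7 and 88.5%. At non-recurrent sites they ran from 0.0925 to 0.648%. In every list the share at recurrent off-CTCF sites lay between those of the other sets. The share at recurrent off-CTCF sites was lower than at CTCF counterparts in 8 of 8 lists, with a mean difference of -62.0 ± 14.6 percentage points (SD, n = 8 lists). The two-sided exact sign-flip permutation test gave p = 0.00781, the smallest that 8 lists allow, and 0.0156 after Benjamini-Hochberg adjustment over 4 tests. It takes the 8 lists as separate units, although they are 2 from each of 4 cell types and may not be independent. Among sites with STAG2 in all 4 earlier cell types the difference was -65.0 points (same exact test, adjusted p = 0.0156). STAG2 was also stronger at the CTCF counterparts in these cell types. Its median percentile in the earlier STAG2 lists was 55.5 to 73.8 there, against 20.7 to 48.0 at recurrent off-CTCF sites. In ESC the median STAG2 fold enrichments were 17.5 and 17.9, against 5.51 and 5.84. The part of peak strength in the STAG1 difference was not tested. The mean difference from non-recurrent sites was 5.75 ± 5.10 points (SD, n = 8 lists), but those sites were chosen for lacking STAG2 in the same cell types, so it is a description. With all STAG lists cut to the length of the shortest, none of the 19 sites left had a STAG1 peak, so the d4c7PGCLC difference given next was 0 there, while that to the CTCF counterparts was -53.7 points (exact permutation test, adjusted p = 0.0312). Over the whole set of lists, 580 of the 2209 sites (26.3%) had a STAG1 peak in at least 1 of the 8, against 50.3% of all GSC STAG3 sites.

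**Figure D4:**
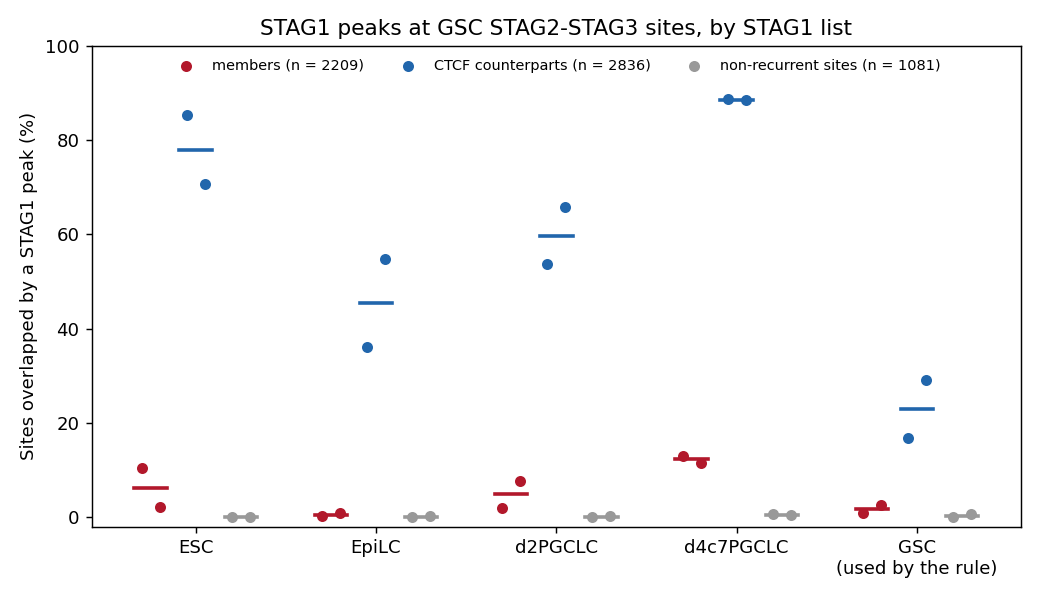
Points give the percent of sites overlapped by a STAG1 peak in each STAG1 list and bars the mean of the 2 lists, for recurrent off-CTCF sites (members), CTCF counterparts and non-recurrent sites, by cell type. Members stay at or below 13.1% in every list, CTCF counterparts lie between 36.1 and 88.7% in the earlier cell types, and the GSC lists took part in choosing the sites.

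Across the 4 earlier cell types the mean STAG1 share at recurrent off-CTCF sites was 6.27 ± 5.79% (ESC), 0.521 ± 0.480% (EpiLC), 4.87 ± 4.07% (d2PGCLC) and 12.3 ± 1.15% (d4c7PGCLC), each with its SD over n = 2 lists. An exact permutation test of the spread between cell types gave p = 0.0952 (adjusted 0.0952). d4c7PGCLC, singled out with earlier results known, averaged 12.3%, against 3.89% in the other lists. The difference was 8.38 points (two-sided exact permutation test, p = 0.0357, the smallest p that 2 against 6 lists allow, adjusted 0.0476). That adjustment counts the comparison with non-recurrent sites, which is not read as a test. The adjusted p of this difference is therefore not read as passing a threshold. Leaving out any 1 STAG1 list of ESC, EpiLC or d2PGCLC gave adjusted p between 0.0635 and 0.127 by the same exact test. The differences were then between 7.64 and 9.68 points. With 7 lists that test reaches no p under 0.0476. Its exact p was 0.0476 without ESC replicate 1, EpiLC replicate 1 or d2PGCLC replicate 2. Without ESC replicate 2, EpiLC replicate 2 or d2PGCLC replicate 1 it was 0.0952, so another split of the lists was at least as extreme. With either d4c7PGCLC list left out the difference was 7.57 or 9.20 points. An exact permutation test with cell types permuted only within a replicate number gave p = 0.0625, the smallest the block allows (adjusted 0.0833). Among sites with STAG2 in all 4 earlier cell types the difference was 15.8 points (exact permutation test, adjusted p = 0.0476 over the same 4 tests). STAG1 list lengths differed too: d4c7PGCLC lists held 38491 and 42013 peaks, ESC 39055 and 29222, d2PGCLC 21438 and 26820, and EpiLC 14720 and 25756, and the part of list length in the result was not tested.

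STAG1 was found more often where STAG2 was broader. A STAG1 peak in any of the 8 lists was found at 6.63% of sites with STAG2 in 1 earlier cell type, 11.2% with 2, 17.0% with 3 and 44.2% with all 4. By position the share was 3.45% at tRNA genes, 25.6% at promoter windows and 27.8% outside genes and gene ends. Where called, STAG1 peaks were weak, at median percentiles between 8.01 and 23.8 of their lists, against 39.0 to 58.8 at CTCF counterparts. The promoters of Med13l, a subunit of the Mediator kinase module, and of Mgat5, a glycosyltransferase, had STAG1 peaks in all 8 lists. At Mgat5 the fold enrichment for STAG1 was 7.30 and 4.81 in ESC and 7.92 and 7.79 in d4c7PGCLC. None was called in GSC, where the rule allowed no STAG1 site. The promoter of Cd164, a sialomucin, and sites outside genes nearest to Tbl1xr1 and Tmco1 had STAG1 in 7 lists, and at Cd164 STAG1 reached 29.3 in d4c7PGCLC, the highest of these 5. Another 2 sites had STAG1 in 7 lists and ranked lower in GSC, and 1 of them, at a gene end on chromosome 11, had STAG2 in only 1 earlier cell type.

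Protein-coding genes with a recurrent off-CTCF site within 2500 bp of an end numbered 1815 of 21883 (8.29%). Spermatogonial genes had one at 11 of 27 (40.7%): Zbtb16, Ret, Etv5, Id4, Sall4, Lin28a, Foxo1, Kit, Dmrt1, Pou3f1 and Taf4b. Pluripotency genes had one at 7 of 25 (28%): Klf2, Klf4 and Klf5, and Sall4, Lin28a, Pou3f1 and Etv5, which are also counted among the spermatogonial genes. Translation factors had one at 9 of 38 (23.7%), chromatin regulators at 10 of 46 (21.7%), RNA splicing genes at 12 of 57 (21.1%) and Notch and segmentation clock genes at 4 of 20 (20%). The counts were 1 of 8 for Sertoli genes, 2 of 20 for RNA polymerase III and TFIIIC, 1 of 12 for small nucleolar RNA hosts, 1 of 12 for primordial germ cell specification, 2 of 40 for the respiratory chain, 2 of 40 for DNA repair, 1 of 31 for meiotic genes, 1 of 31 for the proteasome, 2 of 78 for cytoplasmic ribosomal proteins and 1 of 42 for DNA replication. None was found at the 21 genes of germline genome defence, the 24 of cohesin and CTCF, the 14 of condensin and SMC5/6 or the 8 fibroblast feeder genes. The lists were written with earlier results of these data known, so the counts are descriptions.

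Values at the list genes ranged widely. At Dmrt1, a transcription factor that keeps spermatogonia from entering meiosis (chr19:25505059-25506275, at a gene end), STAG2 was 15.3, 11.3 and 19.3 in GSC. In the earlier cell types it was 3.62 and 8.49 in ESC, 5.36 and 4.45 in EpiLC, 3.71 in 1 d2PGCLC list and not called in d4c7PGCLC. The GSC values were above all earlier ones. As ranks hold within a list only, fold enrichments here and below are not read as changes between cell types. STAG3 there was 7.03, 8.46 and 9.97, and both GSC STAG1 lists held a peak, at 4.81 and 4.68, that made no STAG1 site. The Notch2 promoter had STAG3 at 10.2, 16.01 and 13.5 and STAG2 at 12.8, 6.78 and 10.9 in GSC, within the 6.37 to 14.8 of the earlier lists. At the Etv5 promoter STAG2 was 7.45 and 7.49 in 2 GSC lists, not called in replicate 2, and 5.51 to 13.3 in the earlier lists. Hes1, a Notch target, had STAG2 at 10.8 and 8.73 in GSC and a STAG1 peak in 5 of the 8 earlier lists. The site counted for Lin28a, an RNA-binding protein of germ and stem cells, lay at the promoter of its neighbour Dhdds, and that for Hnrnpu at the promoter of Cox20. At Prmt5, an arginine methyltransferase of germ cells, the site lay on the arginine tRNA gene n-TRacg6, with STAG2 at 255.8, 217 and 198 in GSC. The Psmb3 and Ndufs7 sites lay on tRNA genes too.

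**Figure D5:**
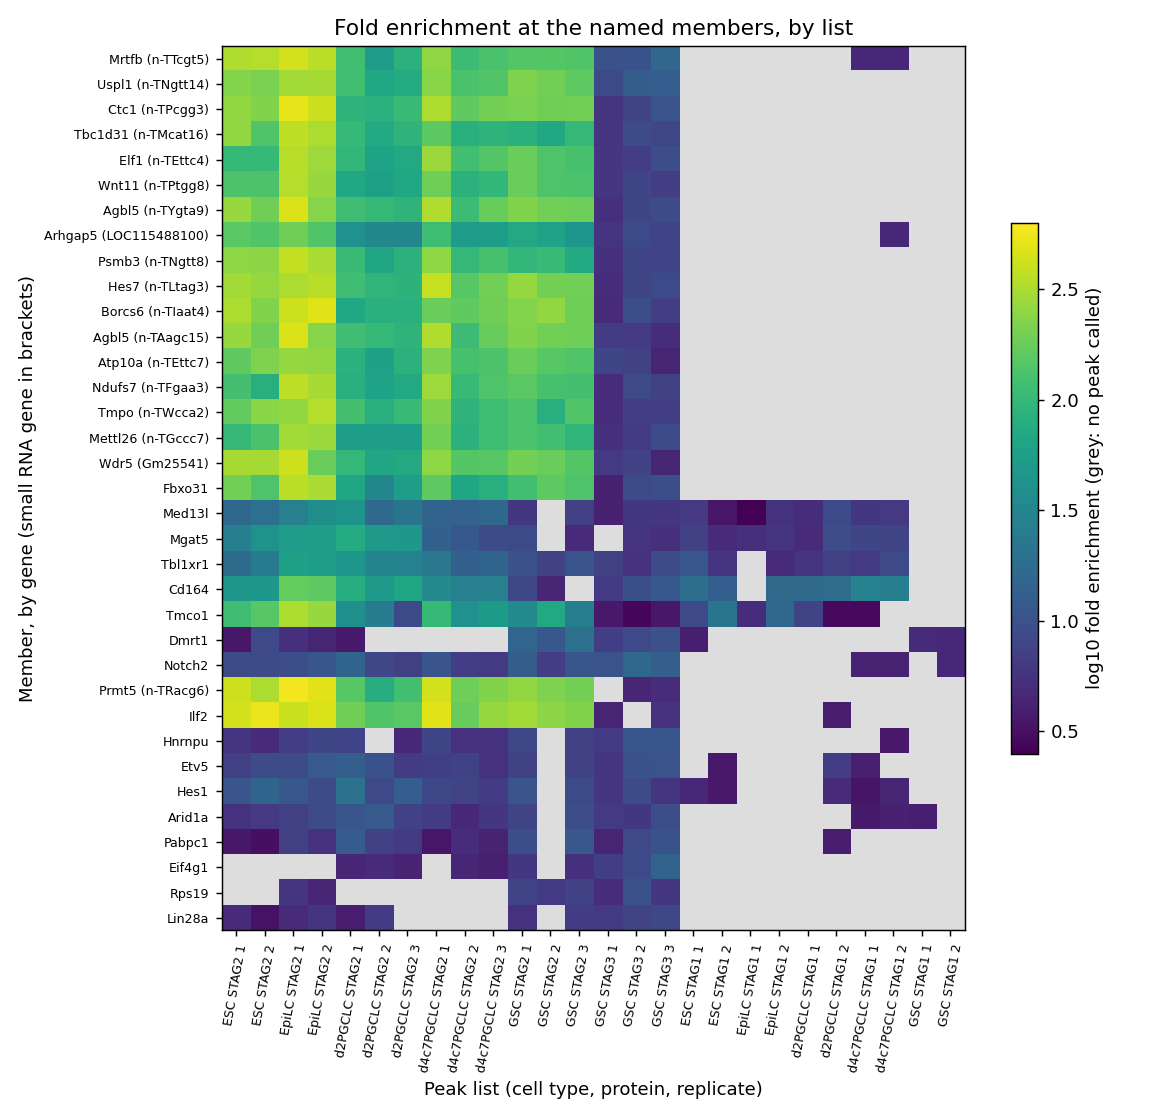
Colour gives log10 fold enrichment at each named recurrent off-CTCF site (rows) in each STAG list (columns), and grey marks lists without a peak. Sites at tRNA genes, Gm25541, Fbxo31 and Ilf2 have higher fold enrichments in the 13 STAG2 lists than in the STAG3 lists, although ranks hold within a list only. Sites with STAG1 peaks in most earlier lists, such as Mgat5 and Med13l, have none in the GSC STAG1 lists, where the rule allowed no STAG1 site.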

How the data were processed

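ChIP-seq peak lists of STAG1, STAG2, STAG3 and CTCF in mouse cells were used, 30 in all, 26 for STAG proteins, each from 1 library, and 4 for CTCF, each pooled over replicates. The submitters' processing notes name the peak caller MACS2, the aligner Bowtie2 (version 2.3.4.1), the trimmers cutadapt (version 1.9.1) and Trim Galore (version 0.4.1), the toolkits deepTools (version 3.5.0), bedtools (version 2.29.2) and SAMtools (version 1.7), and the builds mm10 and GRCm38.p3. For MACS2, its version, options and control libraries were not given in the sources used here. Peak names of the STAG3 lists show another working directory than those of STAG1 and STAG2. The deposited lists give per peak a fold enrichment (a linear ratio), −log10 of a p-value, −log10 of a q-value and a score, all with −log10 q of at least 2. These are the authors' values and were used to describe, rank and filter peaks within a list. Sequencing depth is unknown, so a place without a peak is one where none was called.

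Overlap meant at least 1 bp, and a site was a merged interval overlapped by at least 2 lists of a group. The rule used GSC STAG and CTCF lists and the earlier STAG2 lists, and these are described without a test. Earlier STAG1 lists were compared with exact permutation tests over lists, tested on simulated data, with Benjamini-Hochberg adjustment over 4 tests, of which that against non-recurrent sites is not read as a test since their choice used the earlier STAG2 lists, in Python 3.11.15 with numpy 2.4.6, pandas 2.3.3 and scipy 1.17.1. P-values measure only the spread between samples, which may be technical. Genes, tRNA genes and promoter windows came from RefSeq tables of GRCm38.p6. Of 21883 protein-coding genes 17491 matched a window. Of 585 list genes 575 matched a symbol or synonym. Sites, gene lists and motifs were chosen with earlier results of these data known. Named sites were the 10 of highest mean percentile over the 6 GSC STAG3 and STAG2 lists, up to 8 more called in every STAG2 and STAG3 list, up to 15 list genes at members, and 5 with STAG1 in the most lists. Ilf2 is among the list genes, while Rmrp, Rpph1, Polg, the other small RNA genes and the printed sequences except that of Wbp4 were chosen after their values were seen. Alternatives changed the peak threshold, list length, the list and overlap rules, the CTCF and recurrence conditions and the gene-end window, or left out lists.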

Additional observations from a re-analysis of the deposited data

How the results depend on the processing

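Shares of STAG1 at recurrent off-CTCF sites stayed below those at CTCF counterparts under all 23 alternatives run, with exact adjusted p at or under 0.0312 and differences between -67.3 and -58.7 points when 1 or 2 lists were left out, and -53.7 points with STAG lists of equal length. Against non-recurrent sites the difference was 4.79 to 7.52 points without 1 or 2 lists, and it was 0 with STAG lists of equal length, where no recurrent off-CTCF site had a STAG1 peak. The d4c7PGCLC difference was 7.57 to 11.2 points without 1 or 2 lists and 0 with lists of equal length, and 8.38 points with the replicate block (exact p = 0.0625, the smallest the block allows). With 7 lists the exact test of the d4c7PGCLC difference reaches no p under 0.0476. Without 1 list of ESC, EpiLC or d2PGCLC its exact p was 0.0476 or 0.0952, depending on the list. The spread between cell types, 10.9 to 15.2 points without 1 or 2 lists, passed the threshold under no alternative. Differences between replicates 1 and 2 correlated between -0.0280 and 0.0407 across cell types. No pairing by replicate number was seen, but these values cannot exclude one.

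The number of sites ran from 585 to 2250 when lists were left out, and was 19 with lists of equal length, 251 when every list of a group had to agree and 965 with STAG2 in all 4 earlier cell types. The gene-end share ran from 67.9 to 77.6% when lists were left out, and was 70.9% with a window of 1000 bp, 47.4% with equal lengths, 68.1% with every list and 79.7% with STAG2 in all 4. Sites at tRNA genes numbered 20 to 58 when lists were left out, 11 with equal lengths and 23 with every list. The promoter-window share ran from 51.8 to 62.1% when lists were left out, and was 59.1% with −log10 q of at least 5, 36.8% with equal lengths and 52.9% with every list. Counts of tRNA genes and promoter windows under these settings, and leaving out both short lists together, were added after seeing the data. The depth behind each list is unknown, and list length limits all counts.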

Other observations

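The X chromosome held 3 of the 2209 recurrent off-CTCF sites (0.136%), against 20 of the 2836 CTCF counterparts (0.705%), 2 of the 1081 non-recurrent sites (0.185%) and 170 of all 27734 GSC STAG3 sites (0.613%). Of the 19827 GSC STAG2 sites 270 (1.36%) were on X, and of the 32851 promoter windows 1223 (3.72%). No test was run.

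The median distance from a recurrent off-CTCF site to the next was 439849 bp, with 143 distances within 10000 bp and 86 within 1000 bp.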
